A study of Mus musculus with 12 samples.

Results

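The comparison described here sets mouse 3T3-L1 cells differentiated in medium conditioned by p53-intact cancer cells (WT_CM) against the same cells differentiated by the regular protocol (regular_diff). It takes the 3 WT_CM libraries, numbered 1 to 3, and the 3 regular_diff libraries, numbered 4 to 6, out of 12 libraries in the series, and all 11035 genes of the deposited count table. 3T3-L1 is a mouse fibroblast line that forms fat cells when treated with an adipogenic cocktail, and its genotype is given as WT in all groups. Both groups were induced 2 days after confluence for 2 days with insulin (1 µg/mL), dexamethasone (1 µM), IBMX (0.5 mM) and rosiglitazone (2 µM) in DMEM with 10% fetal bovine serum. They then had insulin alone for 2 days, followed by maintenance medium. The WT_CM cells received each of these media mixed 1:1 with filtered medium from WEA cells, breast cancer cells with wild-type p53. The series asks how p53 loss in breast cancer cells affects fat cell formation, and the comparison here sets cells given the medium of p53-intact cancer cells against the regular protocol. The labels call the WT_CM cells cancer-conditioned adipocytes and the regular_diff cells white adipocytes. Levels in the other groups are given where they help: KO_CM cells had the same mix with medium of p53-knockout WEA cells, and preadipocyte cells were undifferentiated and kept in calf serum. Since it is the WEA cells that lack p53 in KO_CM, no transcript measured here checks the knockout.

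The design has no cells grown in a mix with unconditioned medium. Dilution of the inducers and factors from the cancer cells therefore cannot be told apart, and neither can any difference between the sets numbered 1 to 3 and 4 to 6. Whether replicate libraries stem from cultures grown apart is not stated in the labels. A p-value below therefore weighs a difference against the spread among these libraries alone, and that spread may be technical. In bulk RNA, fewer cells of a type and less RNA per cell cannot be told apart.

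Fat cells store fatty acids as triglyceride in lipid droplets, make part of those fatty acids from glucose and branched-chain amino acids, and secrete hormones such as adiponectin. The nuclear receptor PPARγ and the factor C/EBPα switch these genes on during differentiation. Cytokines that signal through the shared receptor gp130 activate the kinase JAK and the transcription factor STAT3, which switches on secreted acute phase proteins and its own inhibitor SOCS3. In the liver this is the response to injury, and fat cells also make acute phase proteins.

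Transcripts were counted by MARS-seq, which reads the 3′ ends of RNAs and counts each original molecule once by a unique molecular identifier (UMI). Totals were 1758814 to 2025317 UMIs per WT_CM library and 1387854 to 1801316 per regular_diff library. Ribosomal protein genes took 10.5 to 11.2% of the counts in WT_CM and 10.7 to 11.0% in regular_diff libraries. Levels below are in CPM, UMIs scaled to equal library totals, and a change is the log2 fold change of WT_CM over regular_diff, with its standard error. "Rose" and "fell" are used only of genes with an adjusted p under 0.05 in edgeR's quasi-likelihood test on these 6 libraries. The summed level of 12 adipocyte markers was 33339.5 to 33906 CPM in the WT_CM libraries and 37028 to 40107 CPM in the regular_diff libraries, so the groups did not overlap, against 9052 to 11191 CPM in KO_CM and 207 to 728 CPM in preadipocyte libraries. Thermogenic fat cell markers were low: 3 of 10 were in the table, with sums of 52.6 to 63.1 CPM in WT_CM and 87.9 to 132 CPM in regular_diff libraries.

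Of the markers of other cells, 3 of 15 for macrophages and leukocytes were in the table, Cd14, Cd68 and Lyz2, with sums of 42.5 to 45.5 CPM in WT_CM and 20.8 to 27.4 CPM in regular_diff libraries. Cd14, a co-receptor for bacterial lipopolysaccharide, made up most of it, at 39.0, 35.8 and 35.8 CPM in WT_CM against 12.1, 13.7 and 16.1 CPM in regular_diff libraries, while Lyz2 lay at or below 1.71 CPM in each of the 6 libraries. Cd68, the only other member tested, had a change in the other direction, of -0.59, and was not called. Of 14 epithelial markers, listed for carry-over of cancer cells, 5 were in the table, all keratins, with sums of 38.5 to 60.8 CPM in WT_CM and 34.6 to 38.7 CPM in regular_diff libraries. Krt19, one of them, was at 8.89, 6.82 and 18.5 CPM in WT_CM against 2.89, 2.88 and 3.89 CPM in regular_diff libraries, a called rise of 1.78 ± 0.42 (adjusted p 0.00169). Krt18 stood at 16.8 to 27.9 CPM in WT_CM and 20.2 to 21.9 CPM in regular_diff libraries and was not called. Cd14, Cd68, Lyz2, Krt18 and Krt19 were chosen after their values were seen. The part of such cells in the rises of immune genes given below was not tested.

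Of 8946 genes tested, 1480 (16.5%) passed, 782 higher in WT_CM (8.74%) and 698 lower (7.8%). The rises were larger than the falls. Among genes changed at least 2-fold, 232 were higher (2.59%) and 88 lower (0.984%), and among those changed at least 4-fold, 59 were higher and 15 lower. The median change was 0.70 among called rises and -0.48 among called falls, with a median over all tested genes of -0.003. Called rises added 57493 CPM in sum, of which haptoglobin (Hp) alone made up 10.1%. The sum over called falls was -56452 CPM, so in CPM the rises and falls were of like size.

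The number of calls depended on which libraries set the spread. With all 12 libraries in the fit, 943 of 9519 genes (9.91%) were called, 545 higher (5.73%) and 398 lower (4.18%). Of the 1480 genes, 920 were also called there, 0 of them in the other direction, and 560 were not. Both fits take the change itself from the same 6 libraries, so its direction could hardly differ. Counts for gene groups are therefore given for both fits, and a gene whose call ended in the larger fit is marked, mostly with its adjusted p there. Such counts are to be read against 8.74% higher and 7.8% lower among all genes, or 5.73% and 4.18% with all 12 libraries. In that fit KO_CM replicate 1 and preadipocyte replicate 5 lie apart from their groups for some transcripts: Spp1 was at 159, 1657 and 2007 CPM in KO_CM replicates 1 to 3. A fit of 10 libraries without these 2 called 1445 genes. The authors' deposited table gives an adjusted p below that threshold to 666 genes.

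Whether strand was used in counting is not given in the sources used here, so a gene that shares 3′ sequence with another, or overlaps one, is uncertain. Besides those noted below, more than 10% of the stretches searched were shared for Me1, Scd1, Ldhb, Pdhb, Gstm1, Clcf1, Isg15 and Mki67, and Mt2, Ctf1, Nfkb2, Nid2, Esrra, Bckdha, Sult1a1, Pltp, Jak1, Ccnd1, Ddit3 and Manf overlap a gene on the other strand. Slpi overlaps Mir7678 on its own strand. The search covered 308 genes, and Cd14, Cd68, Lyz2, Krt18, Krt19, Rxrg, Myh11 and Des were not among them.

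**Figure D1:**
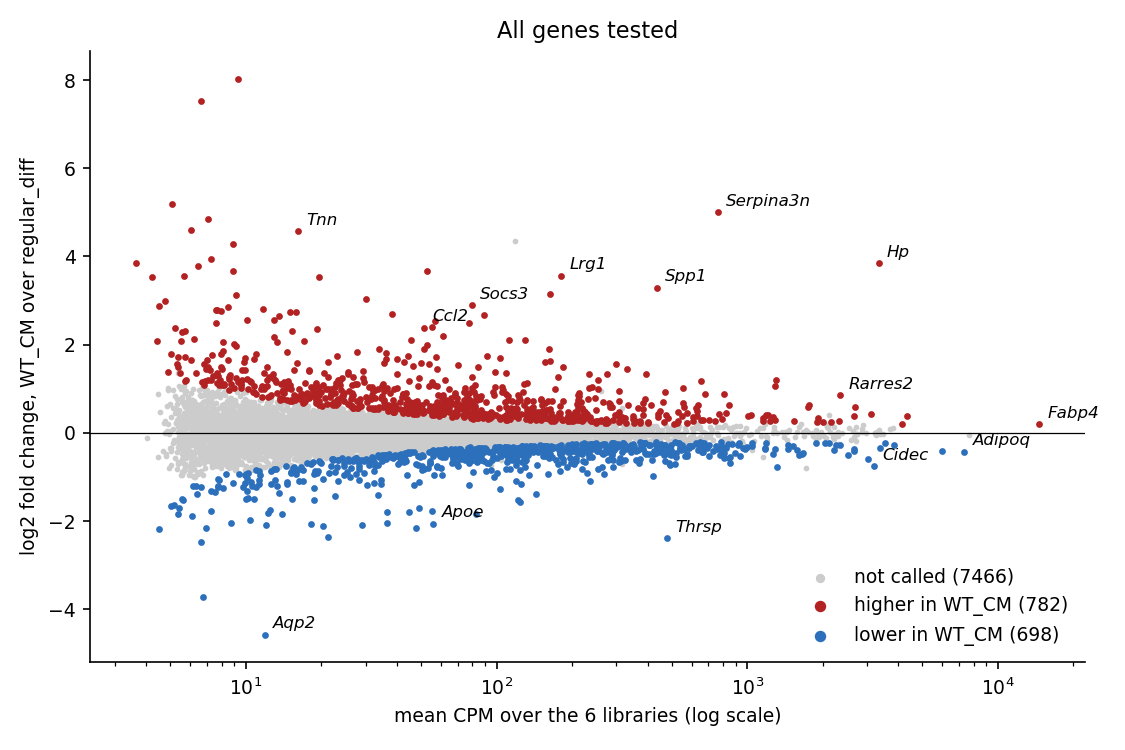
Each point is 1 of the 8946 genes tested, with its mean level over the 6 libraries (CPM, log axis) on the horizontal axis and the log2 fold change of WT_CM over regular_diff on the vertical axis; coloured points passed an adjusted p of 0.05. The cloud of called rises reaches further from 0 than that of called falls, with 59 rises and 15 falls of at least 4-fold.

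Acute phase genes were among the largest rises. Serpina3n, a secreted inhibitor of serine proteases, stood at 1357, 1513 and 1566 CPM in WT_CM libraries and at 44.5, 50.4 and 43.9 CPM in regular_diff libraries, a change of 5.00 ± 0.10 (adjusted p 2.92e-33). Hp, the plasma protein that binds free haemoglobin, reached 6480.0, 5557 and 6703 CPM in WT_CM, against 405, 403 and 487 CPM in regular_diff, a change of 3.85 ± 0.08. For both genes the lowest WT_CM library lay more than 8-fold above the highest regular_diff library. Lcn2, which binds bacterial iron carriers, was at 305, 341 and 233 CPM in WT_CM and 30.6, 29.5 and 38.3 CPM in regular_diff libraries. The secreted glycoprotein gene Lrg1 was at 275, 419 and 310.0 CPM in WT_CM and 28.9, 18.7 and 35 CPM in regular_diff libraries, with replicate 2 the highest of the WT_CM libraries. Their changes were 3.14 ± 0.14 and 3.56 ± 0.26, with adjusted p of 3e-17 and 9.82e-05.

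Of 14 acute phase genes tested, 12 rose and 2 fell (11 and 2 with all 12 libraries), with a median change of 2.46. Several members were chosen after their values were seen: Steap4, a metal reductase of the endosome, was at 174, 173 and 199.8 CPM in WT_CM and 39.3, 50.4 and 37.8 CPM in regular_diff libraries (2.11 ± 0.12). Itih4 changed by 1.37 ± 0.12, and Ptx3, a soluble pattern receptor, by 0.86 ± 0.12. The serum amyloid gene Saa3 was at 12.3, 16.5 and 20.7 CPM in WT_CM against 1.73, 2.16 and 0 CPM in regular_diff libraries, all 6 values low. The 2 members that fell, Orm1 and Orm2, encode orosomucoids, lipid-binding plasma proteins: Orm1 was at 124, 167 and 132 CPM in WT_CM and 266, 218 and 238 CPM in regular_diff libraries (-0.78 ± 0.10), and Orm2 changed by -1.48 ± 0.33. Parts of the 3′ ends of Orm1, Orm2 and Saa3 are shared with related genes (38.3%, 42.6% and 11.3% of the stretches searched), so their counts are uncertain. On mm10 in GENCODE vM21 the protein-coding gene Hp lies on chromosome 8 from 109575128 to 109579172, Lcn2 on chromosome 2 from 32384633 to 32388252, Lrg1 on chromosome 17 from 56119678 to 56122001 and Steap4 on chromosome 5 from 7960457 to 7982213.

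**Figure D2:**
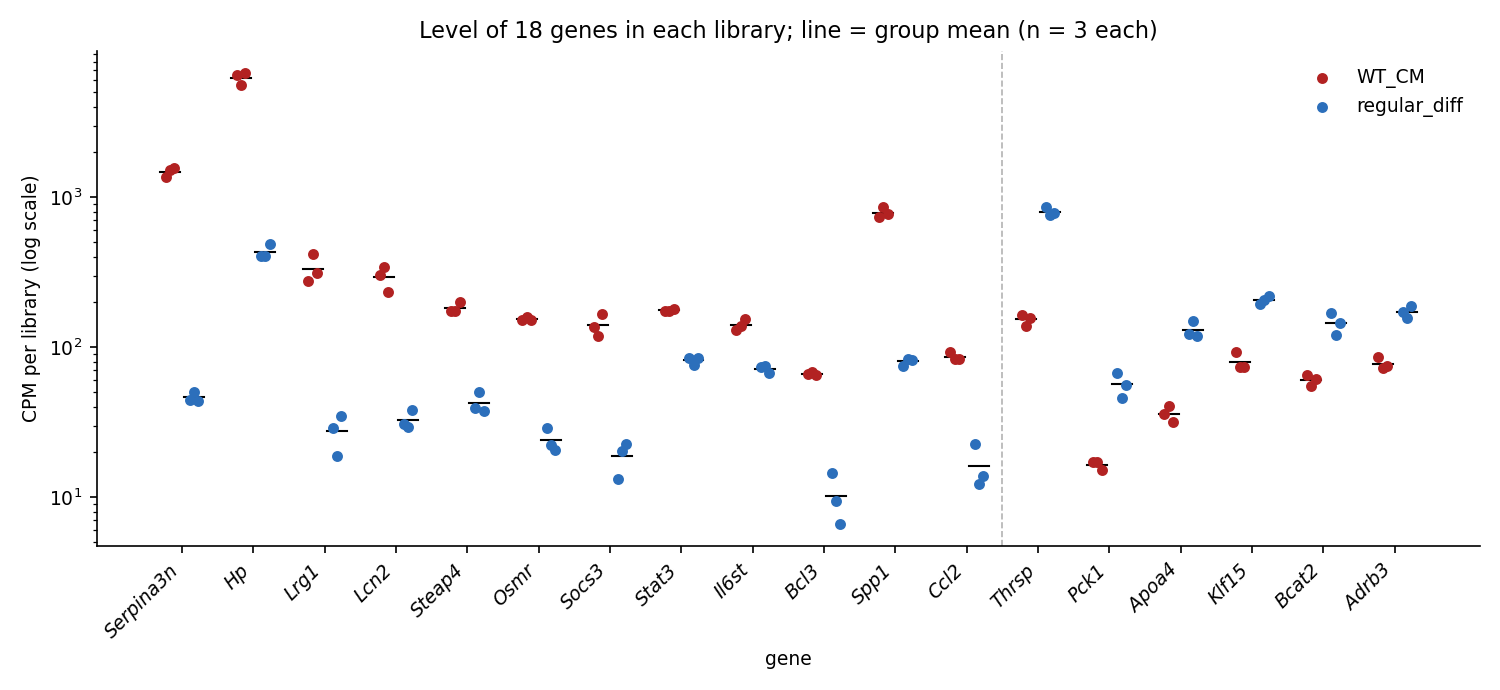
Level in each of the 3 WT_CM and 3 regular_diff libraries (CPM, log axis) for 18 genes, each point 1 library and each line a group mean, with rises left of the dashed line and falls right of it. For Serpina3n, Hp, Lcn2 and Socs3 the 3 WT_CM points lie together well above the 3 regular_diff points, and for Thrsp and Pck1 they lie below.

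The windows just upstream of the RefSeq start sites of these genes (GRCm38.p6) are shown for 6 genes that rose, to let the letters be read beside the values. They were picked after it was seen that each window held a match, and the windows of other genes that rose, with or without one, are not shown. Capitals mark matches on either strand to the STAT pattern TTCNNNGAA, the C/EBP pattern TTGCNNAA, the AP-1 pattern TGANTCA or the NF-kB pattern GGGNNNTTCC, and no match overlaps another in them. Each line runs 5′ to 3′ along the gene's own strand and ends 1 base before the RefSeq start. The GENCODE spans differ: by them the windows of Socs3 and Lcn2 lie inside the gene. Those of Lrg1, with its marked match, and of Steap4 lie inside it in part. Socs3 is at chr11:117969367-117969616 on the minus strand, Steap4 at chr5:7960222-7960471 on the plus strand, and Serpina3n at chr12:104406458-104406707 on the plus strand. Lrg1 is at chr17:56121947-56122196, Lcn2 at chr2:32387740-32387989 and Saa3 at chr7:46715677-46715926, all on the minus strand.
Socs3: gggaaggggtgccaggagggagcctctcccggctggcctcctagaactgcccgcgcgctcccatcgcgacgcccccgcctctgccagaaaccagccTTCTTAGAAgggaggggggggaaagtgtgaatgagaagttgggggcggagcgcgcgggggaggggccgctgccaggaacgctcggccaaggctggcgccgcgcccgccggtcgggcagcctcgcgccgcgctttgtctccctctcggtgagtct
Steap4: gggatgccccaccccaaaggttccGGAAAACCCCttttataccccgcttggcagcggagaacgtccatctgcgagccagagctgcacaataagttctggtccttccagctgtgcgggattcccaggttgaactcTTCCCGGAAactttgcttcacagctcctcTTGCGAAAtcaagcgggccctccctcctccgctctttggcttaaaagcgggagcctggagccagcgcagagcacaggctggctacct
Serpina3n: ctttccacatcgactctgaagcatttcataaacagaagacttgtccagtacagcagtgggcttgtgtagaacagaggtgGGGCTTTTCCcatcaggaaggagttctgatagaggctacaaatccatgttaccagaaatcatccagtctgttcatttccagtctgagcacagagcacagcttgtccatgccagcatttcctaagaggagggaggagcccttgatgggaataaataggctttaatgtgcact
Lrg1: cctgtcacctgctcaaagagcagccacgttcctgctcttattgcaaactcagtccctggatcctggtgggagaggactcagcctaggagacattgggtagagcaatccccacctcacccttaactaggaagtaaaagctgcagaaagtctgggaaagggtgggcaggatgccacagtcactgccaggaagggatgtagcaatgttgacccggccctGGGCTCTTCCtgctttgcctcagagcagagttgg
Lcn2: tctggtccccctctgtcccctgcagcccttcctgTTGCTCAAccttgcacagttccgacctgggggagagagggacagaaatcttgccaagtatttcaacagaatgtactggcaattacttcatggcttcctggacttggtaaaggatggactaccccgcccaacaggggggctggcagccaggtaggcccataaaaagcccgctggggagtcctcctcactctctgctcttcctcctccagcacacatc
Saa3: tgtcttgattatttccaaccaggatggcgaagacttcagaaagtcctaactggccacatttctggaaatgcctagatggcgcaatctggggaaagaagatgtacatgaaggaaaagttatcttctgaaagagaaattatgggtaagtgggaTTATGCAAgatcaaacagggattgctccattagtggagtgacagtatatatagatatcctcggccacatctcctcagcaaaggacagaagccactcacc

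The Socs3 window holds the STAT match TTCTTAGAA from -154 to -146, counted from the start. The Steap4 window holds NF-kB, STAT and C/EBP matches (GGAAAACCCC, TTCCCGGAA and TTGCGAAA). Serpina3n and Lrg1 each have 1 NF-kB match, and Lcn2 and Saa3 each have 1 C/EBP match. Over the 7236 tested genes with a RefSeq window of 250 bases, 5.6% held the STAT pattern, 7.23% the C/EBP pattern, 3.9% the AP-1 pattern and 4.91% the NF-kB pattern. Of the 59 genes that rose at least 4-fold, 44 had a window, and 4 of them (9.09%) held the STAT, 10 (22.7%) the C/EBP, 6 (13.6%) the AP-1 and 7 (15.9%) the NF-kB pattern. Of the 15 largest rises under the naming rule, 12 had a window, of which 1 held the STAT, 2 the C/EBP, 0 the AP-1 and 2 the NF-kB pattern. The TATA pattern TATAAA, not marked in the windows above, was held by 5.87% of the 7236 windows. Among the 44 windows of genes that rose at least 4-fold, 8 (18.2%) held it. Of the 15 genes that fell at least 4-fold, 10 had a window. Of these, 1 held the STAT, 1 the C/EBP, 0 the AP-1, 0 the NF-kB and 0 the TATA pattern. Such a match describes letters in the window and not a bound site, and a window without one says nothing about the factor.

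Genes of the gp130 pathway moved at several levels. Socs3, the feedback inhibitor of JAK, was at 137, 119 and 167 CPM in WT_CM and 13.3, 20.2 and 22.8 CPM in regular_diff libraries, a change of 2.90 ± 0.16 (adjusted p 1.72e-17). Osmr, the receptor chain for oncostatin M that pairs with gp130, was at 152, 159.8 and 153 CPM in WT_CM against 28.9, 22.3 and 20.5 CPM in regular_diff libraries (2.68 ± 0.14). Il6st, which encodes gp130 itself, was at 131, 138 and 153 CPM in WT_CM and 73.3, 74.9 and 67.7 CPM in regular_diff libraries (0.97 ± 0.11). Stat3 was at 175, 173 and 179 CPM in WT_CM and 84.9, 75.7 and 84.4 CPM in regular_diff libraries (1.10 ± 0.10). For all 4 genes no WT_CM library overlapped a regular_diff library. Bcl3, an atypical IκB protein that acts in the nucleus, changed by 2.70 ± 0.20.

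Of 26 tested genes of this pathway, 8 rose and 3 fell (30.8% and 11.5%, and 8 and 2 genes with all 12 libraries), with a median of 0.19. The kinase gene Jak2 changed by 0.57 ± 0.15, and its call ended in DESeq2 and without WT_CM replicate 2 (adjusted p up to 0.0609). The ligand gene Clcf1 was at 16.8, 17.1 and 26.9 CPM in WT_CM and 6.93, 10.8 and 10.5 CPM in regular_diff libraries, and its call ended without WT_CM replicate 3 (adjusted p 0.056). Jak1 at 0.14 ± 0.10 and the leukaemia inhibitory factor receptor Lifr at -0.40 ± 0.19 were not called. Ctf1, which encodes the gp130 ligand cardiotrophin-1, fell to 20.7, 17.1 and 24.1 CPM in WT_CM, against 38.7, 27.4 and 41.1 CPM in regular_diff libraries (-0.81 ± 0.20), and Socs2 changed by -0.74 ± 0.14. Il6st, Jak1, Jak2, Clcf1 and Lifr were chosen after their values were seen. Stat3 overlaps Stat5a on the other strand, and 23% of the stretches searched in Socs2 recur in other genes.

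The list of chemokines also held the growth factor gene Csf1, and all 9 of its tested genes rose (8 with all 12 libraries), with a median of 1.12, while 8.74% of all genes tested rose. Ccl2, which draws monocytes, was at 92.3, 83.6 and 82.8 CPM in WT_CM and 22.5, 12.2 and 13.9 CPM in regular_diff libraries (2.39 ± 0.17). Cxcl5, a neutrophil attractant, was at 24.2, 19.9 and 20.1 CPM in WT_CM and 5.2, 5.04 and 5 CPM in regular_diff libraries (2.06 ± 0.29), and Cxcl1, another, was at 32.6, 29.6 and 31.3 CPM in WT_CM and 11, 18.7 and 13.9 CPM in regular_diff libraries (1.12 ± 0.22). Ccl7 changed by 1.61 ± 0.23, but at an adjusted p of 0.397 with all 12 libraries. Further members were chosen after their values were seen: Cx3cl1, the membrane-bound fractalkine, changed by 1.11 ± 0.21, Ccl6 by 0.80 ± 0.12 and Ccl9 by 2.85 ± 0.39. Cxcl12, which holds blood progenitors in their niche, changed least, by 0.32 ± 0.08.

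Several other immune ligands and receptors also rose. Of 14 tested, 8 rose and 0 fell (7 and 0 with all 12 libraries), with a median of 0.55. Ptgs1, the constitutive cyclooxygenase, was at 66.7, 69.9 and 68.3 CPM in WT_CM and 23.1, 20.2 and 17.8 CPM in regular_diff libraries (1.74 ± 0.16). Csf1, the growth factor of macrophages that is also counted above, was at 103, 103 and 108 CPM in WT_CM against 58.3, 69.9 and 58.8 CPM in regular_diff libraries (0.76 ± 0.12), and Lgals9, which encodes galectin-9, changed by 0.70 ± 0.11. The alarmin gene Il33 was at 9.38, 14.8 and 15.7 CPM in WT_CM and 0.577, 3.6 and 1.67 CPM in regular_diff libraries (2.79 ± 0.45), and the receptor gene Il1r1 changed by 0.67 ± 0.13. Both were chosen after their values were seen. Cd274, which encodes the checkpoint ligand PD-L1, stayed too low to test, at 2.96, 6.82 and 5.04 CPM in WT_CM and 5.2, 5.04 and 5 CPM in regular_diff libraries, and the groups overlapped.

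Of 17 genes of NF-kB subunits and feedback, 4 rose and 0 fell in both fits (23.5% higher, against 8.74% of all genes), with a median of 0.41, Bcl3 having been counted with the gp130 genes. Nfkbiz, an inducible partner of NF-kB, was at 28.1, 25.6 and 29.7 CPM in WT_CM and 12.1, 14.4 and 15 CPM in regular_diff libraries (1.00 ± 0.22). Tnfrsf1a, the main TNF receptor, was at 754, 781 and 775 CPM in WT_CM and 505, 533 and 461 CPM in regular_diff libraries (0.62 ± 0.07), and the subunit gene Nfkb2 changed by 0.56 ± 0.12. Of 16 interferon-stimulated genes 3 rose and 1 fell (18.8% and 6.25%, and 4 and 0 genes with all 12 libraries). Isg15, chosen after its values were seen, was at 20.7, 11.9 and 21.3 CPM in WT_CM and 15, 13 and 20 CPM in regular_diff libraries, and the groups overlapped. Bst2, which tethers virus particles to the membrane, changed by 0.70 ± 0.12.

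Of 18 genes of antigen presentation on MHC class I, 7 rose and 1 fell (6 and 0 with all 12 libraries), with a median of 0.31. The immunoproteasome subunit Psmb8 was at 34.1, 31.3 and 24.6 CPM in WT_CM and 13.9, 12.2 and 11.1 CPM in regular_diff libraries (1.27 ± 0.22). The class I chains H2-D1 and H2-K1 changed by 0.64 ± 0.08 and 0.47 ± 0.08, H2-K1 having been chosen after its values were seen. Related genes share 34.6% of the stretches searched in H2-D1 and 25.5% in H2-K1, so these counts are uncertain. In the complement group, 9 of 13 rose and 2 fell (6 and 0 with all 12 libraries), with a median of 0.51. C4b, of the classical and lectin pathways, was at 193, 205 and 233 CPM in WT_CM against 47.9, 45.4 and 51.6 CPM in regular_diff libraries (2.11 ± 0.11), and 36.8% of its stretches recur in C4a. The lectin pathway protease gene Masp1 changed by 1.81 ± 0.18, and clusterin (Clu), an inhibitor of the terminal complex, by 1.34 ± 0.09. Of the 2 that fell, Cfd encodes the fat cell protease adipsin and Cd59a an inhibitor of the membrane attack complex. Their changes were -0.40 ± 0.07 and -0.59 ± 0.13, at adjusted p of 0.77 and 0.485 with all 12 libraries.

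Matrix genes rose in several classes. Among matricellular proteins, which signal to cells rather than bear load, 10 of 18 rose and 4 fell (10 and 3 with all 12 libraries), with a median of 0.73. The tenascin gene Tnn was at 29.6, 33.5 and 29.7 CPM in WT_CM and 0.577, 2.16 and 1.11 CPM in regular_diff libraries (4.58 ± 0.37). Osteopontin (Spp1), a secreted ligand of integrins, was at 742, 856 and 773 CPM in WT_CM against 75.1, 83.6 and 82.7 CPM in regular_diff libraries (3.29 ± 0.09), with an adjusted p of 4.32e-28 here and 0.0432 with all 12 libraries. Thrombospondin-1 (Thbs1), which can release TGF-β from its latent form, was at 153, 146 and 174 CPM in WT_CM and 52.5, 39.6 and 51.6 CPM in regular_diff libraries (1.70 ± 0.12). Fibronectin (Fn1) changed by 0.89 ± 0.08 and fibulin-2 (Fbln2) by 1.17 ± 0.07, both chosen after their values were seen. The group did not move as one: periostin (Postn) fell to 71.6, 62.5 and 54.8 CPM in WT_CM, against 176, 177 and 189 CPM in regular_diff libraries (-1.52 ± 0.11), and Smoc1, which binds calcium in basement membranes, fell to 8.39, 4.55 and 7.28 CPM in WT_CM, against 36.4, 38.2 and 32.2 CPM in regular_diff libraries.

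Of 27 genes of fibrillar and other collagens and their processing enzymes, 14 rose and 0 fell (9 and 0 with all 12 libraries), with a median of 0.31. Col3a1 was at 3122, 3361 and 3169 CPM in WT_CM and 2109, 2264 and 2051 CPM in regular_diff libraries (0.59 ± 0.07), and Col1a2 was at 5060.4, 4949 and 4793 CPM in WT_CM and 3652, 3915 and 3770.0 CPM in regular_diff libraries (0.38 ± 0.06). Col1a1, its partner chain in type I collagen, was at 149, 139 and 162 CPM in WT_CM and 121, 135 and 127 CPM in regular_diff libraries and was not called (0.24 ± 0.10, adjusted p 0.109), although the groups did not overlap. Col16a1, of the collagens that sit on fibrils, changed by 1.27 ± 0.12, and the propeptide cleaver Bmp1 by 0.75 ± 0.12. In the basement membrane group 6 of 15 rose and 0 fell (4 and 0 with all 12 libraries), among them the linker nidogen-2 (Nid2) by 1.08 ± 0.14 and collagen IV chain gene Col4a2 by 0.37 ± 0.07. Of 5 small leucine-rich proteoglycans, Prelp changed by 0.49 ± 0.08 and fibromodulin (Fmod), a regulator of collagen fibril width, fell to 6.42, 6.25 and 10.1 CPM in WT_CM, against 31.8, 36 and 31.1 CPM in regular_diff libraries.

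Several inhibitors of proteases, and some proteases, rose. Timp1, an inhibitor of matrix metalloproteinases, was at 92.8, 109.7 and 99.1 CPM in WT_CM and 23.7, 20.2 and 21.1 CPM in regular_diff libraries (2.20 ± 0.15), and the metalloproteinases Mmp11 and Adamts1 changed by 1.03 ± 0.08 and 0.92 ± 0.07. Of 16 genes of that group 6 rose and 1 fell (5 and 1 with all 12 libraries). Slpi, an inhibitor of neutrophil elastase, was at 80, 114 and 99.1 CPM in WT_CM against 6.93, 7.21 and 8.33 CPM in regular_diff libraries (3.68 ± 0.20). Serpine2, an inhibitor of thrombin and other serine proteases, changed by 1.16 ± 0.14. In the group of serpins, the plasminogen system and other protease inhibitors, 6 of 12 rose and 0 fell (5 and 0 with all 12 libraries). Genes of the contractile cytoskeleton followed, with 12 of 22 higher and 0 lower (8 and 0 with all 12 libraries) and a median of 0.35. Transgelin-2 (Tagln2) was at 210.3, 286 and 247 CPM in WT_CM and 102, 112 and 96 CPM in regular_diff libraries (1.26 ± 0.11), and the actin crosslinker Actn1 changed by 0.68 ± 0.10. The 5 of 7 smooth muscle and myofibroblast markers in the table summed to 71.6 to 95.1 CPM in WT_CM and 94.4 to 109 CPM in regular_diff libraries. Of the 3 tested, 2 fell, Myh11 and Des, and 0 rose (0 and 0 called with all 12 libraries). Des, the muscle filament desmin, picked after seeing its values, averaged 60.4 ± 12.1 CPM in WT_CM and 81.1 ± 8.76 CPM in regular_diff libraries, and Myh11, smooth muscle myosin and likewise picked after seeing its values, 6.65 ± 0.55 CPM in WT_CM and 13.6 ± 2.83 CPM in regular_diff libraries (SD, n = 3 each).

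Stromal progenitor genes moved in both directions. Of 14 tested, 3 rose and 2 fell (2 and 2 with all 12 libraries), shares of 21.4% and 14.3% against 8.74% and 7.8% of all genes, with a median of -0.03. Ly6a, which encodes the progenitor antigen Sca-1, was at 255, 267 and 246 CPM in WT_CM and 68.7, 72.8 and 63.3 CPM in regular_diff libraries (1.91 ± 0.10), but its adjusted p was 0.181 with all 12 libraries, where KO_CM replicate 1 stood at 14.7 CPM and replicates 2 and 3 at 336 and 302 CPM. Ly6c1 changed by 1.62 ± 0.10. Related Ly6 genes share 18.7% of the stretches searched in Ly6a and 48.3% in Ly6c1. The fibroblast antigen gene Thy1 changed by 0.66 ± 0.13, while Pdgfrb, a receptor of stromal cells, fell to 64.7, 62 and 51.5 CPM in WT_CM, against 78, 79.3 and 103 CPM in regular_diff libraries, a call that ended without regular_diff replicate 6 (adjusted p 0.0523).

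Many genes of DNA replication and mitosis rose. Of 39 tested, 17 rose and 0 fell (13 and 0 with all 12 libraries), and their median was 0.53. Top2a, the topoisomerase that untangles chromosomes in mitosis, was at 34.1, 42.1 and 48.1 CPM in WT_CM and 17.9, 19.5 and 15 CPM in regular_diff libraries (1.25 ± 0.20), and survivin (Birc5) was at 23.2, 37.5 and 27.4 CPM in WT_CM and 8.66, 13.7 and 12.2 CPM in regular_diff libraries (1.35 ± 0.24). Cyclin D1 (Ccnd1), which drives cells out of G1 phase, was at 83.9, 113 and 105 CPM in WT_CM against 49.7, 38.9 and 57.7 CPM in regular_diff libraries (1.02 ± 0.14). The helicase subunit gene Mcm5 changed by 1.06 ± 0.27 and the thymidine kinase gene Tk1 by 0.98 ± 0.17. The proliferation marker Mki67 was at 13.3, 15.4 and 12.3 CPM in WT_CM and 11.5, 13 and 10.5 CPM in regular_diff libraries and was not called (0.23 ± 0.27). Ccnd1, Mcm5, Tk1 and Mki67 were chosen after seeing their values. Among p53 targets of the recipient cells 4 rose and 4 fell of 25 (2 and 2 with all 12 libraries). These are 16.0% each way, against 8.74% higher and 7.8% lower among all genes. The cell cycle inhibitor Cdkn1a fell to 244, 247 and 270.3 CPM in WT_CM, against 333, 356 and 304 CPM in regular_diff libraries (-0.38 ± 0.08), and Gadd45b changed by 0.99 ± 0.22.

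Most transcription factors that define fat cells did not pass the test, and more of those that passed fell than rose. Pparg was at 744, 752 and 721 CPM in WT_CM and 850.0, 801 and 865 CPM in regular_diff libraries. The groups did not overlap, but the change of -0.19 ± 0.07 did not pass (adjusted p 0.0705; 0.0456 without regular_diff replicate 5). Cebpa was at 316, 301 and 315 CPM in WT_CM and 372, 392 and 374 CPM in regular_diff libraries, a called fall of -0.29 ± 0.08 that did not pass with all 12 libraries (adjusted p 0.0571). Of 19 such factors 1 rose and 4 fell (0 and 2 with all 12 libraries), with a median of -0.03. These are 5.26% higher and 21.1% lower, against 8.74% and 7.8% of all genes. The largest of the 4 falls, that of Rxrg at -2.17, was chosen after its values were seen. Its mean level over the 6 libraries lay below 10 CPM, and it was not called with all 12 libraries. Klf15, a factor induced by glucocorticoids that drives amino acid breakdown, fell to 92.3, 73.3 and 73.9 CPM in WT_CM, against 195, 207 and 219.8 CPM in regular_diff libraries (-1.37 ± 0.11). Esrra, the nuclear receptor ERRα that controls mitochondrial genes, fell to 93.3, 81.3 and 99.6 CPM in WT_CM, against 140.3, 135 and 144 CPM in regular_diff libraries (-0.62 ± 0.11). Cebpb, an early factor of differentiation chosen after its values were seen, was not called (0.10 ± 0.09).

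Adipokines split. Of 17 tested, 6 rose and 9 fell (5 and 3 with all 12 libraries). Adiponectin (Adipoq) was at 6320.0, 6578 and 5913 CPM in WT_CM and 8445, 8416 and 8341 CPM in regular_diff libraries (-0.42 ± 0.06, adjusted p 2.31e-06, but 0.782 with all 12 libraries). Resistin (Retn) was at 915, 1018 and 982 CPM in WT_CM against 1849.6, 1492 and 1618 CPM in regular_diff libraries (-0.77 ± 0.08), with an adjusted p of 0.289 with all 12 libraries. Adiponectin, resistin and adipsin thus showed no overlap between the groups while their calls hung on which libraries set the spread. Apolipoprotein E (Apoe) fell to 20.2, 15.9 and 29.1 CPM in WT_CM, against 91.8, 80 and 97.7 CPM in regular_diff libraries (-2.05 ± 0.16), and Angptl8, an inhibitor of lipoprotein lipase that insulin induces, changed by -1.84 ± 0.27. Its relative Angptl4, an inhibitor of the same enzyme that fasting induces, moved the other way, to 1700.5, 1719 and 1799 CPM in WT_CM against 831, 830.1 and 829 CPM in regular_diff libraries (1.06 ± 0.07). Sncg, which encodes γ-synuclein, changed by 1.45 ± 0.09 and the vasodilator gene Adm by 0.96 ± 0.20.

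Lipid droplet genes also split, with 3 of 17 higher and 6 lower (1 and 2 with all 12 libraries). Plin2, the droplet coat protein found in most cells, was at 635, 754 and 628 CPM in WT_CM and 465, 426 and 439 CPM in regular_diff libraries (0.60 ± 0.08). Cidec, which fuses droplets into 1 large one in white fat cells, was at 2441, 2279 and 2411 CPM in WT_CM against 4140.3, 3839.7 and 4052 CPM in regular_diff libraries (-0.76 ± 0.07, adjusted p 0.275 with all 12 libraries). Adrb3, the β3-adrenergic receptor through which noradrenaline starts lipolysis, fell to 85.4, 72.8 and 74.4 CPM in WT_CM, against 171, 157 and 188 CPM in regular_diff libraries (-1.15 ± 0.11). Hormone-sensitive lipase (Lipe), chosen after its values were seen, was at 1022, 791 and 819 CPM in WT_CM and 922, 1223 and 1003 CPM in regular_diff libraries, and the groups overlapped. It was not called (-0.26 ± 0.10, adjusted p 0.114), but passed as lower without WT_CM replicate 1, without regular_diff replicate 4 and in the fit of 10 libraries (adjusted p down to 0.00113). Perilipin-1 (Plin1), the droplet coat of fat cells, was at 286, 271 and 266 CPM in WT_CM and 281, 259 and 269 CPM in regular_diff libraries and was not called. The fatty acid carrier Fabp4 was at 15376, 15992 and 15664 CPM in WT_CM against 14613, 13264 and 12989 CPM in regular_diff libraries (0.20 ± 0.06, adjusted p 0.0198). Its call ended with all 12 libraries (adjusted p 0.926), and also without regular_diff replicate 5 or 6.

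No gene of fatty acid synthesis rose. Of 20 tested, 11 fell (9 with all 12 libraries), with a median of -0.32, against 7.8% of all genes. Thrsp, a regulator of lipogenesis also known as Spot 14, was at 165, 138 and 157 CPM in WT_CM and 858, 762 and 788 CPM in regular_diff libraries (-2.39 ± 0.08, adjusted p 2.6e-24). Fatty acid synthase (Fasn) was at 13.3, 12.5 and 14.6 CPM in WT_CM and 28.3, 23.1 and 21.7 CPM in regular_diff libraries (-0.86 ± 0.23), and its call ended in DESeq2 and without regular_diff replicate 4 (adjusted p up to 0.0605). Acly, which makes cytosolic acetyl-CoA and was chosen after its values were seen, changed by -0.42 ± 0.08, and Me1, which makes NADPH, by -0.65 ± 0.09. The acetyl-CoA carboxylase gene Acacb changed by -1.12 ± 0.26. Scd1, which desaturates fatty acids, was at 3717, 3683 and 3065 CPM in WT_CM and 4348, 3685 and 4512 CPM in regular_diff libraries (-0.26 ± 0.08, adjusted p 0.0135). The Scd1 groups overlapped, and the call ended with all 12 libraries (adjusted p 0.672) and without WT_CM replicate 3, regular_diff replicate 4 or regular_diff replicate 6.

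Glyceroneogenesis and triglyceride assembly followed, with 0 higher and 9 lower of 18 (0 and 6 with all 12 libraries) and a median of -0.25. Pck1, an enzyme on the route from pyruvate to glycerol phosphate in fat cells, fell to 17.3, 17.1 and 15.1 CPM in WT_CM, against 67.6, 46.1 and 56.1 CPM in regular_diff libraries (-1.79 ± 0.19). Dgat2, the last step of triglyceride synthesis, was at 402, 360.5 and 351 CPM in WT_CM and 612, 633 and 597 CPM in regular_diff libraries (-0.73 ± 0.08), and the first step gene Gpat3 changed by -0.90 ± 0.11. Of 21 genes of uptake and insulin response, 4 rose and 5 fell (2 and 4 with all 12 libraries). Slc2a4, which encodes the insulin-regulated glucose transporter GLUT4, was at 208, 189 and 187 CPM in WT_CM and 357, 308 and 335 CPM in regular_diff libraries (-0.78 ± 0.08). Grb14, an adaptor that inhibits the insulin receptor, was at 37, 43.2 and 54.8 CPM in WT_CM and 16.7, 25.9 and 25 CPM in regular_diff libraries (1.00 ± 0.19). Lipoprotein lipase (Lpl) was at 1169.7, 729 and 924 CPM in WT_CM against 1235, 1420.2 and 1484 CPM in regular_diff libraries and did not pass (-0.55 ± 0.18, adjusted p 0.12, but 0.00283 with all 12 libraries). Cd36, a fatty acid transporter, varied widely within both groups, at 64.7, 80.2 and 38.6 CPM in WT_CM and 76.8, 20.2 and 83.8 CPM in regular_diff libraries.

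Mitochondrial energy genes fell by small amounts and in large number. All 35 tested subunits of respiratory complex I had a negative change, from -0.67 to -0.05, and 28 of them fell (17 with all 12 libraries), with a median of -0.36. All 35 tested subunits of complexes II to IV and the ATP synthase likewise had a negative change, and 28 fell (15 with all 12 libraries), with a median of -0.34. In complex I 30 of the 35, and in the other complexes 29 of the 35, had all 3 WT_CM libraries below all 3 regular_diff libraries, as 14.5% of all genes did. Atp5b, the catalytic subunit of the ATP synthase, was at 2308, 2352 and 2219.6 CPM in WT_CM and 3002, 3128 and 2999 CPM in regular_diff libraries (-0.41 ± 0.07). Uqcrfs1, the Rieske iron-sulphur protein of complex III, was at 702, 677 and 619.5 CPM in WT_CM against 931, 949.7 and 928 CPM in regular_diff libraries (-0.49 ± 0.07). The complex IV subunit Cox4i1, chosen after its values were seen, changed by -0.39 ± 0.07. The largest fall of this group was that of Cox7a1, the heart and fat form of a complex IV subunit, to 59.7, 60.3 and 50.4 CPM in WT_CM, against 125, 86.5 and 101 CPM in regular_diff libraries (-0.88 ± 0.13). Cox7a1 also belongs to the thermogenic markers.

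Most genes of the citric acid cycle also fell, with 0 higher and 23 lower of 30 (0 and 17 with all 12 libraries) and a median of -0.37. Fumarase (Fh1) was at 255, 255 and 261 CPM in WT_CM and 372, 414 and 397 CPM in regular_diff libraries (-0.62 ± 0.08), and the pyruvate dehydrogenase subunit gene Pdhb changed by -0.62 ± 0.08. The isocitrate dehydrogenase subunit gene Idh3a changed by -0.49 ± 0.08 and citrate synthase (Cs) by -0.43 ± 0.07, both chosen after their values were seen. Pyruvate carboxylase (Pcx), which refills the cycle, was at 743, 552 and 665 CPM in WT_CM and 999.6, 1071 and 1072 CPM in regular_diff libraries (-0.68 ± 0.08). Of 22 genes of fatty acid oxidation, 13 fell (9 with all 12 libraries), with a median of -0.34. The only one of the 22 that rose was Cpt1a, the liver form of the enzyme that admits fatty acids to mitochondria, at 49.4, 49.5 and 41.4 CPM in WT_CM and 24.8, 27.4 and 21.1 CPM in regular_diff libraries (0.95 ± 0.17). Mitochondrial ribosomal proteins had 1 higher and 14 lower of 66 (0 and 7 with all 12 libraries) and a median of -0.15, and cytosolic ones had a median of 0.01, with 2 higher and 4 lower of 71 (0 and 0 with all 12 libraries).

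**Figure D3:**
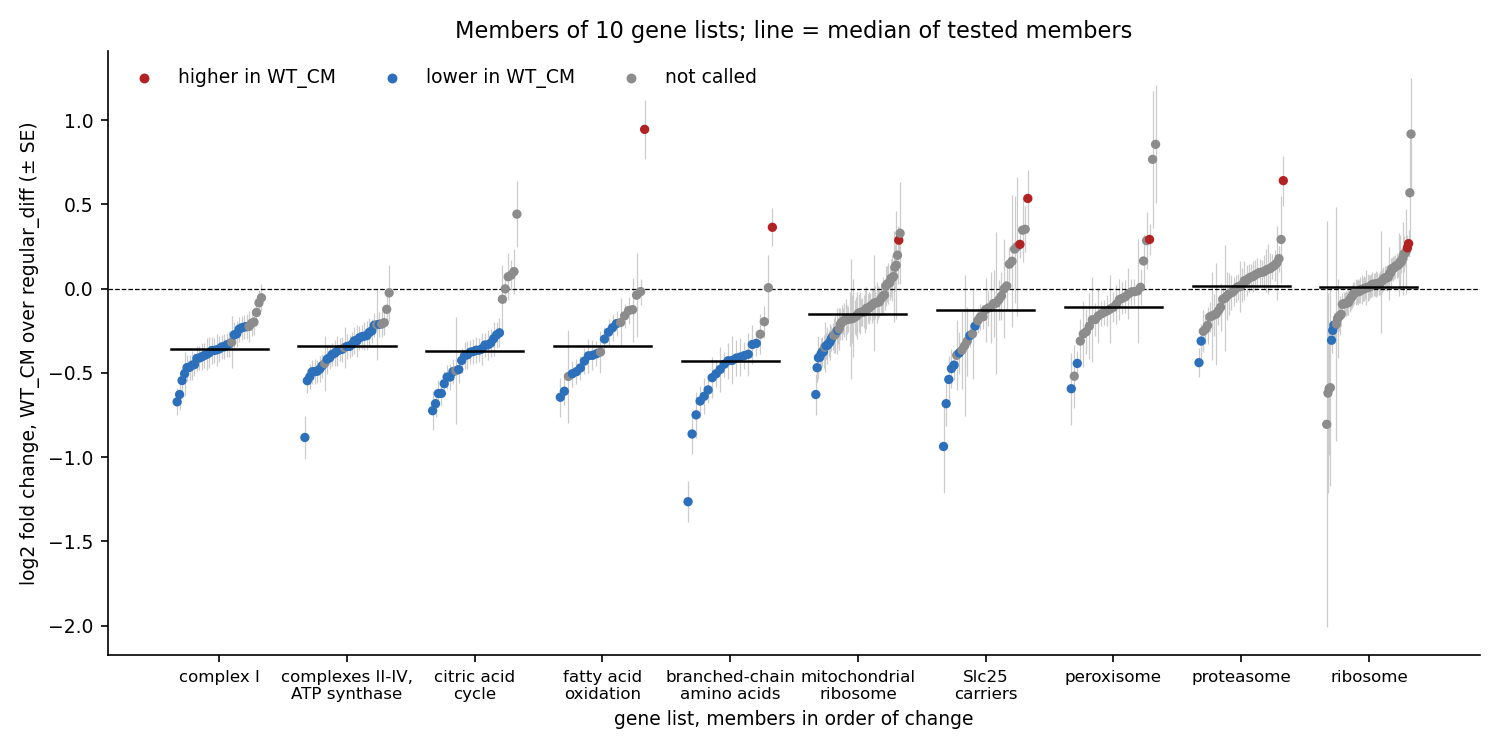
Log2 fold change of WT_CM over regular_diff for every tested member of 10 gene lists, mitochondrial ones at the left, each point 1 gene and the line the median, with grey bars for the standard error. The points of complex I and of complexes II to IV with ATP synthase all lie below 0, with medians of -0.36 and -0.34, while the cytosolic ribosomal proteins lie around 0.01.

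Branched-chain amino acid catabolism, a source of carbon for fat synthesis in fat cells, had 1 higher and 18 lower of 22 tested genes (0 and 13 with all 12 libraries), with a median of -0.43. Bcat2, the mitochondrial transaminase of the first step, fell to 65.7, 55.2 and 61 CPM in WT_CM, against 169, 120.3 and 145 CPM in regular_diff libraries (-1.26 ± 0.12). Bckdha and Dbt, subunits of the dehydrogenase complex that commits the carbon, changed by -0.67 ± 0.09 and -0.86 ± 0.12. Later steps changed by -0.75 ± 0.13 for isovaleryl-CoA dehydrogenase (Ivd), -0.64 ± 0.11 for Mccc1 and -0.60 ± 0.08 for Aldh6a1, Mccc1 and Aldh6a1 chosen after their values were seen. Falls were thus spread from the first step to the last.

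Amino acid response and serine synthesis genes, which ATF4 controls, had 1 higher and 12 lower of 32 (0 and 9 with all 12 libraries) and a median of -0.20. Trib3, a pseudokinase of this response, was at 109, 116 and 107 CPM in WT_CM and 216, 222 and 196 CPM in regular_diff libraries (-0.93 ± 0.10). Ddit3, which encodes the stress factor CHOP, was at 153, 148 and 153 CPM in WT_CM and 251, 254 and 225 CPM in regular_diff libraries (-0.68 ± 0.09), and Atf5 changed by -0.67 ± 0.08. Both were chosen after their values were seen. Phgdh, the first enzyme of serine synthesis, changed by -0.76 ± 0.10, and 59.9% of its stretches recur elsewhere. ER chaperone genes went the other way, with 9 higher and 1 lower of 34 (6 and 0 with all 12 libraries) and a median of 0.17. Creld2, a protein of the ER lumen, was at 95.3, 98.4 and 98.5 CPM in WT_CM and 58.9, 60.5 and 44.4 CPM in regular_diff libraries (0.84 ± 0.12), calreticulin (Calr), a calcium-binding chaperone, changed by 0.58 ± 0.07 and the secreted ER protein Manf by 0.51 ± 0.11. Hspa5, the main chaperone of the ER, was not called (0.15 ± 0.07). Manf and Hspa5 were chosen after seeing their values.

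Of 29 glycolysis and hypoxia genes, 3 rose and 9 fell (0 and 5 with all 12 libraries), with a median of -0.15. Ero1l, an oxidase that forms disulphide bonds in the ER, fell to 63.2, 88.1 and 77.2 CPM in WT_CM, against 163, 172 and 153 CPM in regular_diff libraries (-1.10 ± 0.11), and the lactate dehydrogenase gene Ldhb changed by -0.93 ± 0.09. Egln3, a prolyl hydroxylase that hypoxia induces, changed by -0.56 ± 0.08. Calls were no more frequent than the 16.5% of all genes in the proteasome, with 1 higher and 2 lower of 40, and the lysosome, with 2 and 3 of 38. Cholesterol synthesis had 1 and 3 of 25, and the peroxisome 1 and 2 of 29. With all 12 libraries these counts were 1 and 0, 1 and 0, 0 and 2, and 0 and 1. In the peroxisome group Gnpat, the first enzyme of ether lipid synthesis, was at 402, 395 and 429 CPM in WT_CM and 577, 553 and 535 CPM in regular_diff libraries (-0.44 ± 0.07).

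**Figure D4:**
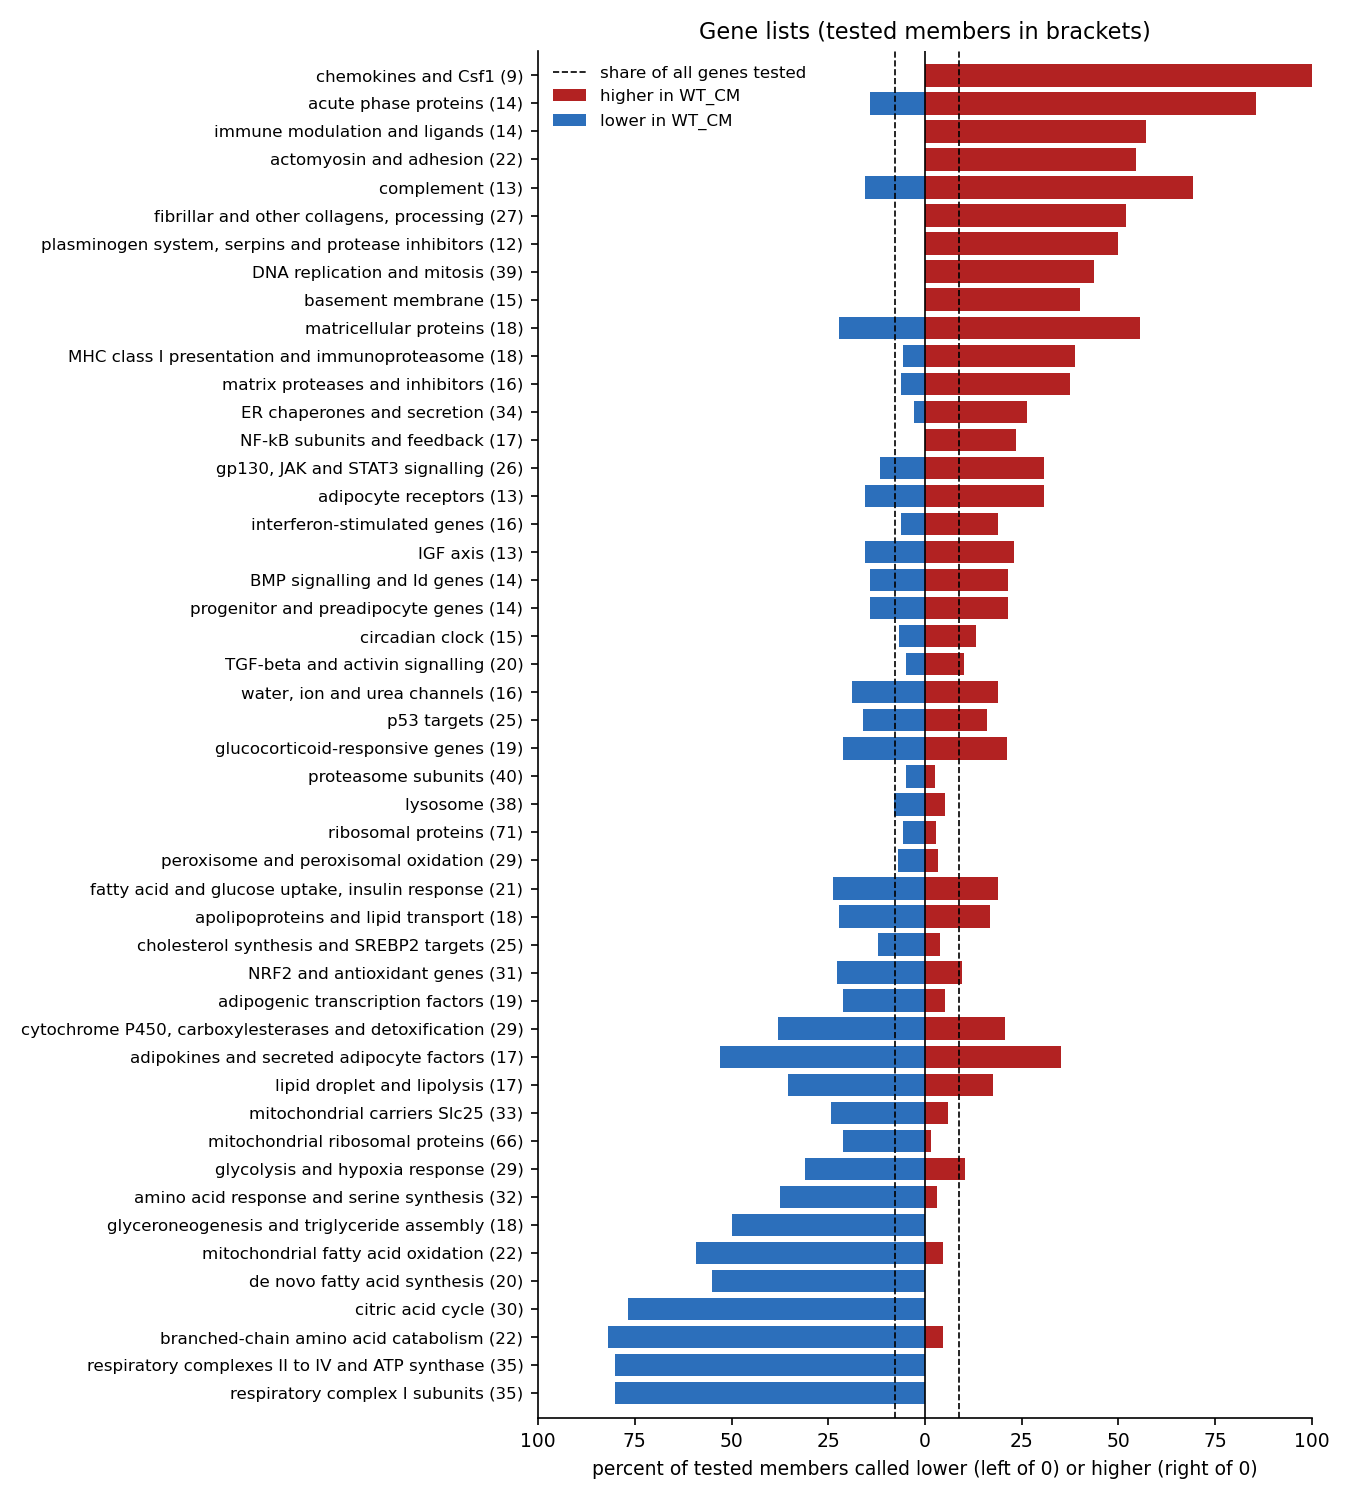
Share of tested members of each gene list with at least 9 of them that were higher or lower in WT_CM than in regular_diff at an adjusted p of 0.05, in percent of the members tested, with the share over all genes (8.74% higher, 7.8% lower) marked by dashed lines. The list of chemokines and Csf1 and that of acute phase proteins have the largest shares higher, and branched-chain amino acid catabolism and the respiratory complexes the largest shares lower.

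Detoxifying enzymes moved in both directions, 6 higher and 11 lower of 29 (4 and 9 with all 12 libraries). Cyp2f2, a cytochrome P450, was at 87.9, 106 and 84.5 CPM in WT_CM and 16.7, 15.1 and 20 CPM in regular_diff libraries (2.40 ± 0.16), and Cyp7b1, which hydroxylates oxysterols, changed by 2.57 ± 0.32. Adh1, which oxidises ethanol and retinol, fell to 17.3, 15.9 and 19 CPM in WT_CM, against 75.1, 81.4 and 77.7 CPM in regular_diff libraries (-2.16 ± 0.16). Carbonic anhydrase 3 (Car3), abundant in fat, fell to 61.7, 47.2 and 80.6 CPM in WT_CM, against 167, 166 and 224 CPM in regular_diff libraries (-1.56 ± 0.16). Among antioxidant genes 3 rose and 7 fell of 31 (9.68% and 22.6%, and 2 and 2 genes with all 12 libraries). The metallothionein Mt2, which binds zinc and copper, was at 1630.4, 1913 and 1911 CPM in WT_CM and 798, 834 and 722 CPM in regular_diff libraries (1.21 ± 0.08), and glutathione transferase Gstm1 changed by -0.67 ± 0.08.

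Glucocorticoid-responsive genes were divided, 4 higher and 4 lower of 19 (3 and 4 with all 12 libraries). Those higher were Lcn2, Mt2, Angptl4 and Mt1, and the call of Mt1 ended with all 12 libraries (adjusted p 0.394). Genes of either direction can respond to other signals too, and Ddit4, which fell, is also counted with the amino acid response genes. Tsc22d3, which encodes the glucocorticoid-induced protein GILZ, fell to 95.3, 73.3 and 99.1 CPM in WT_CM, against 119.5, 137 and 143 CPM in regular_diff libraries (-0.58 ± 0.12), and the sulphotransferase gene Sult1a1 changed by -0.86 ± 0.09. Dexamethasone was among the inducers whose medium was mixed 1:1 in WT_CM cells, and its part in these changes was not tested. In the clock list 2 rose and 1 fell of 15 (1 and 1 with all 12 libraries), shares of 13.3% and 6.67% that lie near those of all genes, among them the repressor Nfil3, at 24.2, 42.1 and 31.3 CPM in WT_CM and 17.3, 14.4 and 18.9 CPM in regular_diff libraries (0.92 ± 0.22).

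The largest fall of the 8946 genes tested was that of a water channel. Aqp2, best known from the kidney, was at 0.988, 0.569 and 1.12 CPM in WT_CM and 21.9, 21.6 and 25 CPM in regular_diff libraries (-4.57 ± 0.41), while Aqp1 was at 86.4, 97.8 and 106 CPM in WT_CM and 11.5, 14.4 and 23.3 CPM in regular_diff libraries (2.53 ± 0.17). Channels and pumps as a group had 3 higher and 3 lower of 16 (18.8% each way, and 3 and 2 genes with all 12 libraries). Lipid transport genes had 3 higher and 4 lower of 18 (16.7% and 22.2%, and 3 and 1 genes with all 12 libraries). The HDL receptor Scarb1 was at 738, 624 and 681 CPM in WT_CM and 394, 462 and 427 CPM in regular_diff libraries (0.67 ± 0.08), and the phospholipid carrier Pltp changed by 1.00 ± 0.11. Of 13 fat cell receptors 4 rose and 2 fell (30.8% and 15.4%, and 0 and 2 genes with all 12 libraries). Ffar4, a receptor for long-chain fatty acids, fell to 26.7, 26.7 and 13.4 CPM in WT_CM, against 52.5, 37.5 and 50 CPM in regular_diff libraries (-1.07 ± 0.20).

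Of 20 genes of TGF-β and activin signalling 2 rose and 1 fell (2 and 0 with all 12 libraries), which at 10.0% and 5.0% lies near the 8.74% and 7.8% of all genes. Tgfbr2, the TGF-β receptor that binds the ligand, was at 111, 119 and 81.7 CPM in WT_CM and 37.5, 36.7 and 32.8 CPM in regular_diff libraries (1.55 ± 0.14). In the BMP list 3 rose and 2 fell of 14 in both fits (21.4% and 14.3%), and the target Id1 fell to 206, 234 and 221 CPM in WT_CM, against 329, 313 and 359.7 CPM in regular_diff libraries (-0.61 ± 0.08). Of 13 IGF genes 3 rose and 2 fell (23.1% and 15.4%, and 2 and 1 genes with all 12 libraries). Igfals, which holds IGF in the circulating complex, fell to 11.4, 13.6 and 7.84 CPM in WT_CM, against 50.8, 54.8 and 36.1 CPM in regular_diff libraries (-2.09 ± 0.22). Of 33 mitochondrial carriers 2 rose and 8 fell (1 and 5 with all 12 libraries), Slc25a42, the coenzyme A carrier, by -0.68 ± 0.13.

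How these levels stood beside the other groups was read from all 12 libraries. KO_CM and WT_CM are compared in the 12-library fit, and this comparison shares its WT_CM libraries with the one above, so no overlap between them is read as a result. Over all genes, KO_CM was higher than WT_CM for 1298 of 9519 (13.6%) and lower for 1327 (13.9%). Among the genes picked by the naming rule, without those chosen after their values were seen, 53 were higher and 96 lower in KO_CM than in WT_CM. Most of these genes were picked by their change in the same WT_CM libraries. The pick itself shapes these counts, and they are not read against the shares of all genes. Lrg1 was at 49.4, 15.9 and 22.4 CPM in KO_CM and 275, 419 and 310.0 CPM in WT_CM libraries (adjusted p 8.65e-05). Serpina3n was at 359, 354 and 384 CPM in KO_CM and 1357, 1513 and 1566 CPM in WT_CM libraries (adjusted p 0.00152), and Steap4 at 41.4, 29.1 and 49.3 CPM in KO_CM and 174, 173 and 199.8 CPM in WT_CM libraries (adjusted p 4.98e-11). All 3 genes were therefore higher with the p53-intact than with the p53-knockout medium.

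Saa3, in contrast, was at 111, 66.2 and 114 CPM in KO_CM and 12.3, 16.5 and 20.7 CPM in WT_CM libraries (adjusted p 1.64e-07), and Ccl2 at 236, 256 and 305 CPM in KO_CM and 92.3, 83.6 and 82.8 CPM in WT_CM libraries (adjusted p 1.08e-08), both higher in KO_CM. Socs3 was at 208, 165 and 203 CPM in KO_CM and 137, 119 and 167 CPM in WT_CM libraries (adjusted p 0.0395), with the lowest KO_CM library between the WT_CM values. Osmr, at 146, 121 and 135 CPM in KO_CM and 152, 159.8 and 153 CPM in WT_CM libraries, was not called (adjusted p 0.0905). Pparg was at 226, 239 and 315 CPM in KO_CM and 744, 752 and 721 CPM in WT_CM libraries (adjusted p 3.45e-11), lower in KO_CM, and at 47.4, 58.5 and 50.7 CPM in preadipocyte libraries. Thrsp was at 128, 161 and 139 CPM in KO_CM and 165, 138 and 157 CPM in WT_CM libraries and was not called between them (adjusted p 0.467), both groups lying below regular_diff and above the preadipocyte libraries at 0, 1.95 and 0.686 CPM. Fibronectin (Fn1) was at 2989, 2805 and 2861 CPM in KO_CM and 932, 1177 and 1044 CPM in WT_CM libraries (adjusted p 3.06e-11) and at 4017, 4565 and 4091 CPM in preadipocyte libraries, so WT_CM lay nearest to regular_diff. Postn was at 114, 256 and 219.7 CPM in KO_CM and 71.6, 62.5 and 54.8 CPM in WT_CM libraries (adjusted p 0.00424), and at 749, 439.8 and 624 CPM in preadipocyte libraries. For Postn the 3 WT_CM libraries were thus the lowest of all 12. Apoe was at 48.1, 55.6 and 41.9 CPM in KO_CM and 20.2, 15.9 and 29.1 CPM in WT_CM libraries (adjusted p 0.00023) and at 9.26, 11.7 and 7.54 CPM in preadipocyte libraries. Klf15 was at 21.4, 15 and 34.4 CPM in KO_CM and 92.3, 73.3 and 73.9 CPM in WT_CM libraries (adjusted p 3.21e-08), so that WT_CM lay between KO_CM and regular_diff. In preadipocyte replicates 4 to 6 the acute phase gene Hp was at 9.26, 134 and 8.91 CPM, Lcn2 at 2.72, 6.5 and 2.74 CPM and Serpina3n at 4.9, 31.2 and 10.3 CPM, with replicate 5 the highest for each. Their WT_CM levels thus lay far above both the regular_diff and the preadipocyte levels.

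**Figure D5:**
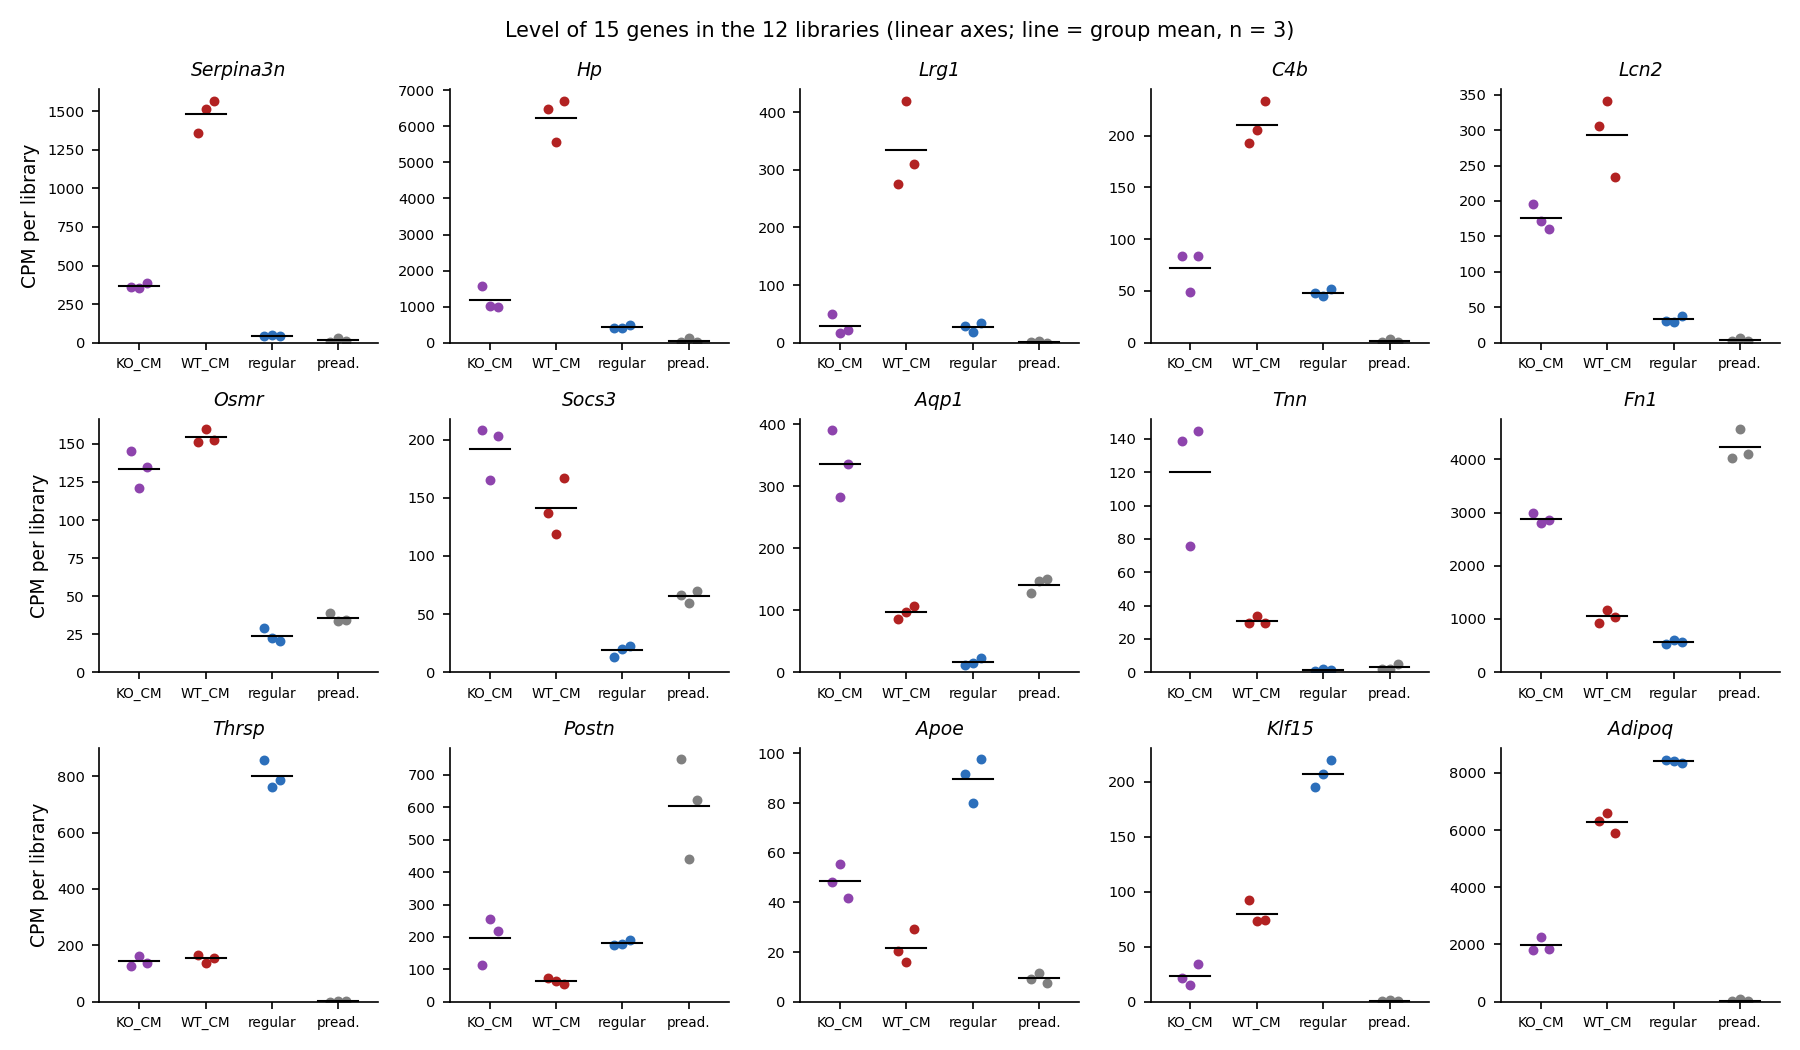
Level of 15 genes in each library of the 4 groups (CPM, linear axes from 0), ordered KO_CM, WT_CM, regular (regular_diff) and pread. (preadipocyte), each point 1 library and each line a group mean. Serpina3n, Hp, Lrg1, C4b and Lcn2 are highest in WT_CM, Aqp1, Tnn and Fn1 are higher in KO_CM than in WT_CM, and Thrsp is at a like level in KO_CM and WT_CM, below regular_diff.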

How the data were processed

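RNA (30 ng per library) from 3T3-L1 cells was profiled by MARS-seq, a pooled 3′ method, per the labels' protocols. The authors deposited raw UMI counts per gene for 12 libraries, and a table of their own comparisons with adjusted p-values. The submitters' processing notes name cutadapt, HTSeq, DESeq2 and the mm10 build, without versions or settings. Libraries were grouped by their labelled titles.

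The members and gene lists (49 lists, 1482 symbols, 1259 in the table and 1113 tested) were chosen with earlier results of these data known. Low genes were removed with filterByExpr, leaving 8946 of 11035. Counts of the 6 libraries were scaled by TMM and tested with the robust quasi-likelihood test of edgeR 4.0.16 (limma 3.58.1), with Benjamini-Hochberg adjustment over all genes tested and a threshold of 0.05. CPM is a count divided by the library's total. The biological coefficient of variation was 0.0804. On simulated counts the fit recovered 94% of 2-fold and 100% of 4-fold changes among 200 planted in 8813 genes, with 9 unchanged genes called. Changes were planted only in genes above a minimum mean count, so recovery at lower counts was not simulated.

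Genes were named by a rule: a fixed set, the 15 largest rises and falls with at least 20 CPM and no overlap of groups, the 10 largest differences in CPM each way, and up to 4 called members per list and direction with at least 10 CPM. Others are marked as chosen after their values were seen. Alternatives were the fit of all 12 libraries, DESeq2 1.42.0, other scalings and filters, thinning to equal totals, and leaving out each library. Replicates differed by more than counting noise in each pair (chi-square per degree of freedom 2.04 to 2.83), so none was counted as a duplicate. Shared 3′ sequence was searched in stretches of 31 bases against GENCODE vM21. Promoter windows came from RefSeq.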

Additional observations from a re-analysis of the deposited data

How the results depend on the processing

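Against the 1480 calls, 943 were made with all 12 libraries and 922 with DESeq2. Calls of higher genes numbered 492 with DESeq2, against 782, and calls of lower genes 398 with all 12 libraries and 430 with DESeq2, against 698. Leaving out 1 library gave 1162 calls (without regular_diff replicate 4) to 1390 (without WT_CM replicate 2). Other filters and scalings, thinning to equal totals and a fit without KO_CM 1 and preadipocyte 5 gave 1339 to 1526. The 3 genes Plin1, Cd36 and Cebpb, near 0, changed sign under some settings and were not called. The Plin1 log2 fold change was -0.00121 after thinning and between -0.00669 and 0.0525 over the fits without 1 library, Cd36 at 0.014 with DESeq2 and 0.058 after thinning, with a range of -0.398 to 0.267 over the fits without 1 library, and Cebpb between -0.0419 and 0.195 over them. Over all named genes and lists, 6369 other values stayed the same. For a gene this means the same direction and side of the threshold. For a list it means only that the count of called members stayed near the reported count. Among gene values 325 fell short of the threshold, 10 newly passed it and 9 changed sign, and 164 list counts moved. The causes were not tested. No paired analysis was possible because the groups compared share no replicate numbers (1 to 3 in WT_CM and 4 to 6 in regular_diff). Genes with under 20 CPM over the 6 libraries made up 269 of the calls, and depth limits their precision.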

Other observations

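Genes of the AP-1 family, transcription factors built as pairs of Fos and Jun proteins, moved in the same comparison, and were chosen after their values were seen. Fosl1, which encodes Fra-1, was at 81.0, 106 and 77.8 CPM in WT_CM and 26.6, 23.8 and 28.9 CPM in regular_diff libraries, a log2 fold change of 1.72 ± 0.15 (adjusted p 1.92e-11). Junb was at 425, 447 and 469 CPM in WT_CM against 146, 135 and 172 CPM in regular_diff libraries (1.56 ± 0.09). Fosl2, Fos and Jun rose by 1.25 ± 0.23, 1.06 ± 0.16 and 0.70 ± 0.13. Jund was at 172, 134 and 169.6 CPM in WT_CM and 197, 175 and 187 CPM in regular_diff libraries and was not called (adjusted p 0.0971). The members thus did not move as one. On the other strand Fosl1 overlaps Ccdc85b and Junb overlaps Prdx2, so their counts are uncertain.

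Further genes chosen after their values were seen are given as values. Slc39a14, the zinc and iron importer ZIP14, was at 67.2, 72.2 and 86.2 CPM in WT_CM and 26.6, 25.2 and 23.3 CPM in regular_diff libraries (1.58 ± 0.16). Gpt, the alanine transaminase, was at 157, 153 and 168 CPM in WT_CM and 317, 281 and 299 CPM in regular_diff libraries (-0.91 ± 0.08). Pygb, a glycogen phosphorylase, changed by -1.08 ± 0.09.

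A pair of genes was at 0 in all 3 regular_diff libraries. Slc6a2, the noradrenaline transporter, had 21, 26 and 26 counts in WT_CM against 0, 0 and 0 counts in regular_diff libraries, at least 21.5-fold higher when the regular_diff group is set at 3 counts in sum. It was at 10.7, 13.2 and 10.5 CPM in KO_CM libraries. The unnamed gene 1600025M17Rik had 39, 43 and 22 counts in WT_CM against 0, 0 and 0 counts in regular_diff libraries, at least 30.6-fold higher. Mir692-1 had 9, 1180 and 10 counts in WT_CM against 15, 15 and 24 counts in regular_diff libraries, so that 1 WT_CM library held nearly all of them, and it was not called (adjusted p 0.399). These 3 genes were chosen after their values were seen, and were not searched for shared 3′ sequence.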
